A study of Danio rerio with 2 samples.

Results

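The sites described here are the strongest compact stretches of open chromatin called in both of 2 zebrafish neuroblastoma libraries, 1 from tumours of MYCN transgenic fish and 1 from tumours of MYC transgenic fish. They number 673, out of 52911 sites where a single MYCN peak overlapped a single MYC peak on chromosomes 1 to 25. Each member is such a 1-to-1 pair in which both peaks belong to the top 2% of their own list by the authors' score and at least 1 of the peaks is narrower than 800 bp. Chromatin accessibility was measured by ATAC-seq, with 50000 EGFP-positive cells sorted per library and transposed for 1 hour at 37 °C. Both groups of fish carried a dbh:EGFP reporter, which marks cells that use the dopamine beta-hydroxylase promoter, and the sorted cells are labelled neuroblasts. The age of the fish, the promoter behind either transgene and the number of tumours in each library are not given in the sources used here. There was 1 library per transgene, so no value below can be set against the spread between tumours and no test of a difference between the transgenes was made.

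In ATAC-seq the Tn5 transposase cuts where DNA is not wrapped in nucleosomes, so a peak marks a stretch that proteins other than histones occupy or keep clear. Compact peaks with many cuts are typical of promoters, of strong enhancers and of sites bound by architectural proteins such as CTCF, which anchors chromatin loops. MYC and MYCN are closely related transcription factors that bind E-box sequences, mostly in chromatin that is already open. Noradrenergic neuroblastoma cells belong to the sympathetic lineage, whose identity genes include dbh itself. No gene annotation or genome sequence of build danRer7 was used here, so the sites are given by position, and whether a site is a promoter, lies in a gene or holds a given motif was not analysed here.

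The members were chosen by score and width, and both are therefore given as description. The top 2% began at a score of 515 in the MYCN list, which 1377 peaks reached, and at 663 in the MYC list, which 1565 peaks reached. Of the 1377 strong MYCN peaks, 4 had no overlapping MYC peak, 76 were part of an overlap with several peaks, 490 had a counterpart below the MYC limit, and 134 were in pairs whose peaks were both at least 800 bp wide. Of the 1565 strong MYC peaks, the corresponding numbers were 2, 87, 669 and 134. Overlaps were sought on chromosomes 1 to 25 only, so the 4 and the 2 without overlap include any strong peak elsewhere. Those chromosomes held 68556 of the 68559 MYCN peaks and 77834 of the 77836 MYC peaks. The 673 members thus held 48.9% of the strong MYCN peaks and 43.0% of the strong MYC peaks. Among the 807 pairs with both peaks in the top 2%, 83.4% were compact (95% Wilson interval 80.7 to 85.8, covering counting error only). The other 134 are called wide pairs below, and the 52104 pairs with at least 1 peak under its limit are called weaker pairs. At least 1 peak under 800 bp was more common in weaker pairs. It was present in 87.5% (85.8 to 89.1) of pairs whose weaker peak lay in the top 2 to 5% of its list. In pairs whose weaker peak lay in the lower 50% the share was 99.8% (99.7 to 99.8).

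The limits cut through a continuous range of sites. The 5 members nearest to the MYCN limit had MYCN scores of 515 to 516, and the 5 nearest compact pairs outside it all scored 514. At the MYC limit the 5 innermost members scored 663 to 665 and the 5 nearest pairs outside scored 662. At the width limit, the narrower peak measured 795 to 799 bp in the 5 members nearest to it and 800 to 803 bp in the 5 nearest wide pairs.

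The members, all strong in both lists by the rule, shared their order within the lists only in part. The MYCN scores ran from 515 to 2541 with a median of 618, and the MYC scores ran from 663 to 1944 with a median of 786. Scores of different lists need not be on the same scale, so they are compared below by rank within each list. The scores of the 673 members had a Spearman correlation of 0.42 across sites, which share their libraries and were cut at both limits. Members made up 11 of the 20 highest MYCN peaks and 16 of the 20 highest MYC peaks, and 6 members were among the highest 20 of both. Of the 11, the member with the poorest MYC rank, at chr7:73909717 in MYCN, ranked 12 in MYCN and 1096 in MYC (named after its values were seen). For the highest 100, the numbers were 63 in MYCN, 75 in MYC and 28 in both.

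**Figure D1:**
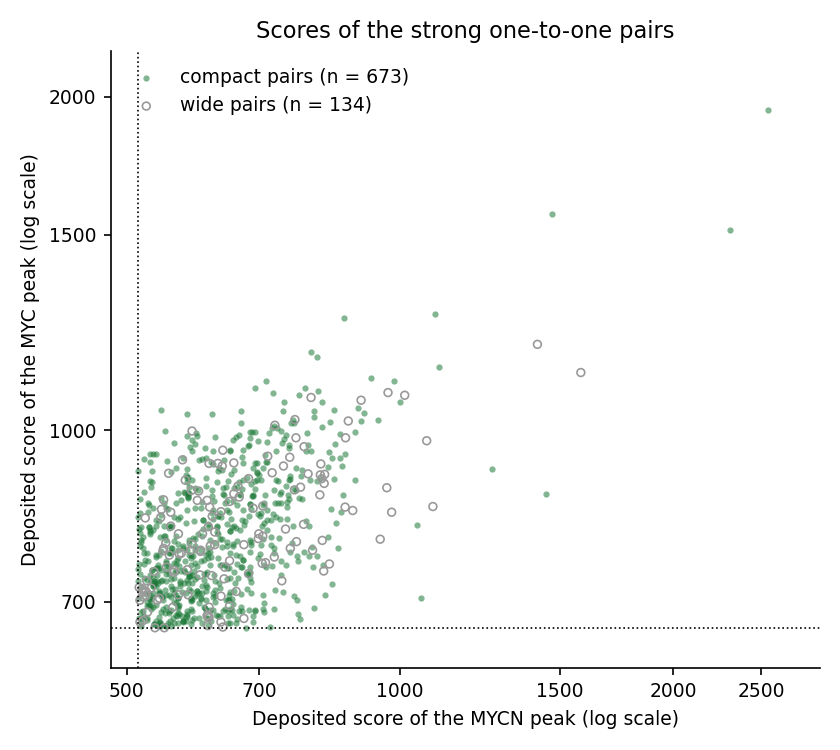
Deposited score of the MYCN peak (horizontal axis) against that of the MYC peak (vertical axis), both log scales, for 673 compact pairs (filled) and 134 wide pairs (open). Dotted lines are the top 2% limits of 515 and 663; most points crowd near the limits, and the highest compact pair is at 2541 and 1944.

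The site at the head of both lists lay on chromosome 20. Coordinates are those of build danRer7 and of the MYCN peak unless the MYC peak is named. Its MYCN peak, chr20:4645214-4645762, scored 2541 and its MYC peak, chr20:4645207-4645753, scored 1944, so its starts differed by 7 bp and its ends by 9 bp. The next site, on chromosome 5, was called at chr5:64236655-64237221 in MYCN (score 2312, rank 2) and at chr5:64236651-64237226 in MYC (score 1515, rank 3), with offsets of 4 and 5 bp. In both tumours these 2 sites were called as nearly the same stretch, 547 to 576 bp wide. The third, on chromosome 2, was different in shape. Its MYCN peak at chr2:13838798-13839401 was 604 bp wide (score 1472, rank 4), while its MYC peak at chr2:13838716-13839573 was 858 bp wide (score 1568, rank 2) and enclosed it.

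The other 7 leading members, chosen by the poorer of their ranks, ranked between 4 and 33 in either list. The narrowest of the 10 lay at chr17:53841268-53841661 in MYCN, 394 bp wide, with a score of 1103 in MYCN (rank 8) and of 1141 in MYC (rank 9). A site at chr10:16740331-16740833 had a MYCN score of 1093 and a MYC score of 1272 (ranks 9 and 4). A site at chr15:6325238-6325769 had scores of 986 and 1108 (ranks 16 and 13), so these 3 sites were in the highest 20 of both lists. Chromosome 14 held a pair of leading members, chr14:22296590-22297176 with scores of 930 and 1115 (ranks 24 and 12), and chr14:14075193-14075929 with scores of 899 and 1047 (ranks 28 and 27). The remaining leading members lay at chr18:35072835-35073489 (scores 999 and 1059, ranks 15 and 24) and at chr12:38986928-38987559 (scores 912 and 1035, ranks 25 and 33). Over all 10 leading sites, the larger of the start and end offsets was 5 to 45 bp in 9 of them and 172 bp in the chromosome 2 site.

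**Figure D2:**
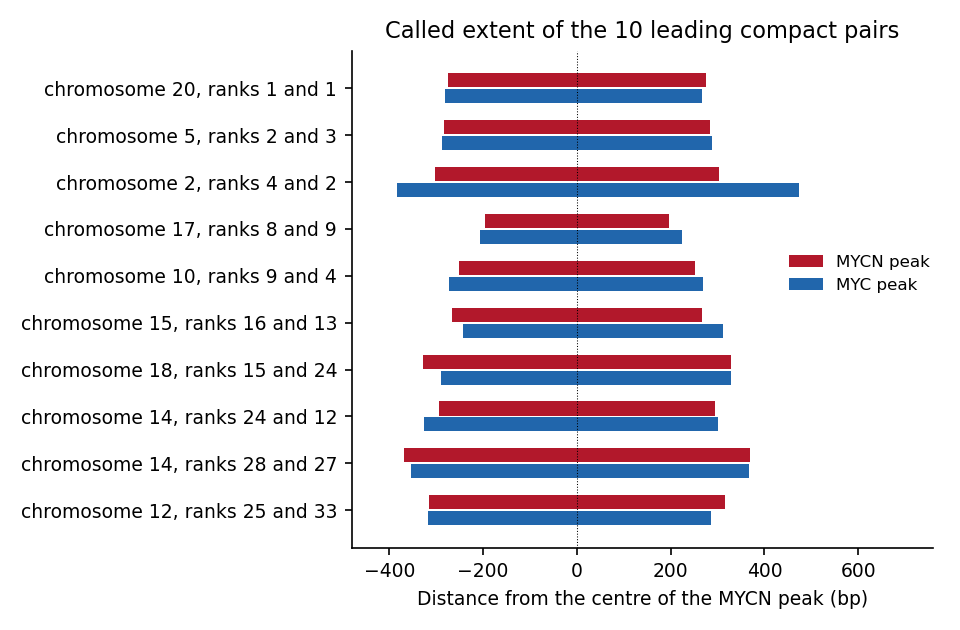
Called extent of the 10 leading compact pairs in the MYCN list (red) and the MYC list (blue), as distance in bp from the centre of the MYCN peak, with the rank in either list (MYCN, then MYC). The bars nearly coincide except on chromosome 2, where the MYC peak is 254 bp wider.

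Some members stood near the head of a list and near the limit of the other. Towards MYCN, the largest difference in percent rank was at chr15:9178054-9178680, which ranked 190 of 68559 in MYCN and 1542 of 77836 in MYC. It was followed by sites at chr5:45583928-45584719 (ranks 104 and 1429), at chr15:15943324-15943823 (109 and 1339), at chr7:62754830-62755233 (298 and 1551) and at chr2:18996329-18996779 (256 and 1465). These 5 sites were called at nearly the same extent in both lists, with a larger edge offset of 3 to 43 bp. Towards MYC, the largest difference was at chr11:26045605-26046207, which ranked 1365 in MYCN and 158 in MYC. The next were at chr4:8898336-8898876 (ranks 1285 and 121), at chr2:31962879-31963355 (1196 and 109), at chr1:51034774-51035353 (1338 and 276) and at chr19:32587100-32587686 (1204 and 130). The edges of these 5 differed more unevenly, by 3 bp on chromosome 2, 16 bp on chromosome 11 and 143 to 158 bp at the other 3. Of all members, 312 (46.4%, 42.6 to 50.1) had the better percent rank in MYCN, beside 44.8% (36.6 to 53.2) of the 134 wide pairs and 41.3% (40.8 to 41.7) of all pairs. The rule used these ranks, and no test was made on them.

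The members had similar widths in both tumours. The median width was 580 bp in MYCN (quartiles 477 and 668, range 331 to 976) and 614 bp in MYC (quartiles 510 and 710, range 318 to 1100). Over all 52911 pairs the median width was 349 bp in MYCN and 388 bp in MYC. The members were thus compact by the 800 bp limit, but wider than the typical pair. The widths had a Spearman correlation of 0.76 across the 673 sites. Both peaks were under 800 bp in 598 members, and in the other 75 a single peak was, the wider peak being the MYC one in 64 and the MYCN one in 11. The 5 narrowest members lay at chr23:2209032-2209374, at chr1:55486903-55487233, at chr10:22234584-22234929, at chr7:57735620-57735980 and at chr9:893512-893869, with widths of 318 to 378 bp in either list. The chromosome 1 site was 331 bp wide in both lists, shifted by 1 bp.

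The MYC peak was the wider one in most members, as it was over the whole genome. It was wider in 465 of 673 members (69.1%, 65.5 to 72.5), beside a background of 64% of all 52911 pairs and 52.2% (43.8 to 60.5) of the wide strong pairs. The rule shapes the comparison with wide pairs, because strong pairs with a single peak under 800 bp all count as members. In 64 of these 75 members the MYC peak was the wider one. Among members with both peaks under 800 bp the share was 67.1% (63.2 to 70.7). A MYC peak at least 1.5 times as wide as its MYCN peak occurred in 28 members (4.16%, 2.89 to 5.95), beside 12.6% of all pairs. The reverse occurred in 4 members (0.594%, 0.231 to 1.52), beside 4.9% of all pairs. Each of the 2 occurred in 0 of the 134 wide strong pairs (0%, 0 to 2.79), in which the rule requires both peaks to be at least 800 bp wide. The share with a wider MYC peak was close to the background, and both shares past 1.5 times were below it, in members whose width the rule limits. The 5 largest differences were all wider in MYC. The MYC peak was wider by 491 bp on chromosome 21 (chr21:39771184-39771568 in MYCN), by 460 bp on chromosome 25 (chr25:167148-167655 in MYCN), by 459 bp on chromosome 3 (chr3:40249530-40250095 in MYCN), by 435 bp on chromosome 19 (chr19:27746587-27746985 in MYCN) and by 410 bp on chromosome 16 (chr16:33756454-33756828 in MYCN).

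**Figure D3:**
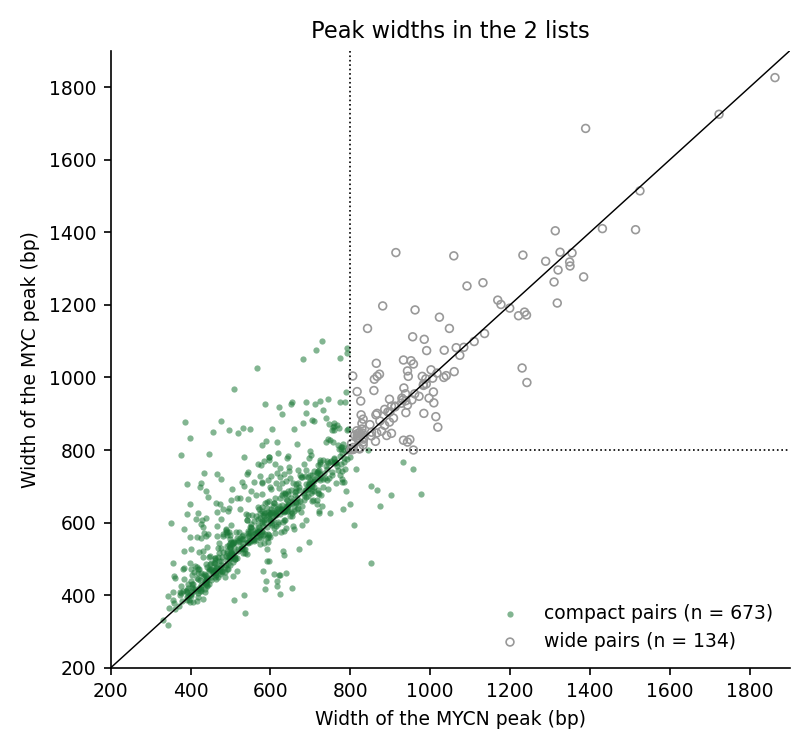
Width of the MYCN peak (horizontal axis) against that of the MYC peak (vertical axis), in bp, for 673 compact pairs (filled) and 134 wide pairs (open), with the line of equal width and dotted lines at the 800 bp limit. Most compact pairs lie along the line, and a scatter of pairs above it has a wider MYC peak.

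The position of the called edges entered the choice of the members through the limit on width and through the rule on overlap. Strong peaks without an overlapping peak in the other list were left out. So were the 76 strong MYCN peaks and 87 strong MYC peaks in overlaps with several peaks. The offsets are therefore those of pairs already chosen to overlap, and the wide and weaker pairs passed the same overlap rule. Within the members, the edges differed little between the tumours. The starts differed by a median of 18 bp (quartiles 8 and 37) and the ends by a median of 18 bp (7 and 40). The larger of the 2 offsets had a median of 32 bp (95% binomial interval of the median 30 to 35), the centres were 16 bp apart (13.5 to 18.5), and the shared bases made up 92.4% (91.6 to 93.0) of the bases covered in either list. Both edges lay within 10 bp in 92 members, a share of 13.7% (11.3 to 16.5). The share was nearly the same in the wide strong pairs, at 13.4% (8.67 to 20.2), and was 5.15% (4.96 to 5.34) in the weaker pairs. The start was identical to the base in 18 members and the end in 24, but in no member were both. Pairs with both identical did occur among the wide and among the weaker pairs. The shares of such pairs were not counted, so these numbers are description only.

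The edge offset of pairs of like width was smaller the stronger the pair. Among pairs with a mean width of 505 to 688.5 bp, the middle range of the members, the median larger edge offset was 35 bp (31 to 41) in 341 members. In pairs whose weaker peak lay in the top 2 to 5% of its list it was 45 bp (41 to 50, 571 pairs), and it rose over the next classes to 48, 56 and 72 bp. In pairs whose weaker peak lay in the lower 50% of its list it was 118 bp (110 to 124). Only 1703 of the 26346 pairs of that class were in this range of width. The shared bases fell in parallel from 92.3% (90.8 to 93.3) to 75.3% (74.2 to 76.6) of the covered bases. The number of reads behind a peak cannot be read from these lists, and its part in this gradient was not tested. All 7905 weaker pairs in this range of width together had a median larger edge offset of 71 bp (69 to 74), beside 35 bp in the members. Over all widths the contrast was similar, with a median of 32 bp (30 to 35) in the members and 60 bp (60 to 61) in the 52104 weaker pairs. Wide strong pairs had a median larger edge offset of 34 bp (30 to 41), which overlaps the interval of the compact ones.

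**Figure D4:**
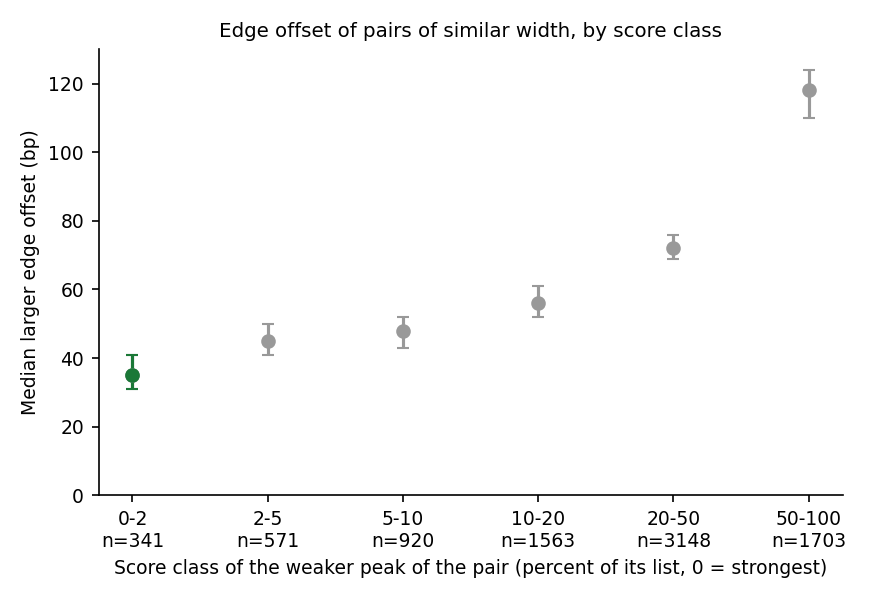
Median larger edge offset (bp, vertical axis) between the MYCN and MYC peaks of pairs with a mean width of 505 to 688.5 bp, by score class of the weaker peak as percent of its list (horizontal axis). Bars are 95% binomial intervals of the median; the offset is 35 bp in the members (green) and 118 bp in the weakest class.

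Where the edges of a member did differ, the difference was mostly at a single end. An edge was offset by more than 100 bp in 148 members (22%, 19.0 to 25.3), beside 29.2% (28.8 to 29.6) of all pairs. The share was 21.6% (15.5 to 29.4) in the wide pairs. In the same middle range of width it was 24% (19.8 to 28.9) of members and 38.5% (37.5 to 39.6) of weaker pairs. In 128 of the 148 members (86.5%, 80.0 to 91.1) the other edge was within 50 bp, so that the wider peak had a shoulder on 1 side. This share was 66.5% (65.8 to 67.3) in the weaker pairs and 75.9% (57.9 to 87.8) in the 29 wide pairs with such an offset. It depends on how small offsets are in each class. The upper quartiles of the start and end offsets were 37 and 40 bp in members, below the 50 bp limit, and 71 and 70 bp in weaker pairs. Whether the shares differ beyond that was not tested. The shoulder belonged to the MYC peak in 98 of the 128 (76.6%), beside 68.4% in the weaker pairs, and to the MYCN peak in 30. It lay at the lower coordinate in 56 and at the higher in 72. On chromosome 21, for instance, the MYC peak began 476 bp before the MYCN peak at 39771184 and ended 15 bp after it, and the next called site was 5 bp away. On chromosome 16 the MYC peak began 389 bp before the MYCN peak at 33756454, with its other end 21 bp away.

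Members had fewer called neighbours at a few kb than weaker pairs, and as many at longer range. The median distance to the nearest other site, called in either list, was 5.85 kb (5.43 to 6.24) for members, 6.55 kb (5.96 to 7.16) for wide strong pairs and 4.52 kb (4.47 to 4.57) for weaker pairs. Within 50 kb there was a median of 8 other sites around members (7 to 8), around wide pairs (7 to 9) and around weaker pairs (8 to 8). Another site lay within 1 kb of 146 members (21.7%, 18.7 to 25.0), beside 18.9% (18.6 to 19.3) of the weaker pairs and 13.4% (8.67 to 20.2) of the wide pairs. In the middle range of width the shares were 18.8% (15 to 23.3) for members and 16.8% (16.0 to 17.7) for weaker pairs. Within 5 kb another site lay near 43.4% (39.7 to 47.2) of members, 32.8% (25.5 to 41.2) of wide pairs and 54.4% (54.0 to 54.8) of weaker pairs. The nearest neighbour was called in both lists at 63.0% of members, in MYC only at 23.2% and in MYCN only at 13.8%, beside 62.5%, 24.4% and 13.1% for weaker pairs.

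Counted by distance, the called sites around members were sparse from 1 to 5 kb and rose in a step at 5 kb. There were 195 other sites at 1 to 5 kb from the 673 members, or 0.0362 per kb (exact Poisson interval 0.0313 to 0.0417), and 508 at 5 to 9 kb, or 0.0944 per kb (0.0863 to 0.103). The density was 0.0267 per kb (0.0187 to 0.0370) in the last kb before 5 kb and 0.0899 (0.0746 to 0.107) in the next. Each list showed this on its own, with a ratio of the inner to the outer density of 0.365 in the MYCN list and 0.365 in the MYC list. The ratio was 0.200 around wide strong pairs. It was 0.473 around pairs in the top 2 to 5%, then 0.633, 0.651 and 0.755 in the next classes, and 0.788 around pairs in the lower 50%. From 5 kb outwards the density around members was 0.0832 to 0.101 per kb out to 15 kb, and around the weakest pairs it was 0.0826 to 0.0882. The peak caller named in the processing notes by default sets the background of a candidate peak from reads in a window of up to 10 kb, which reaches 5 kb to either side, and its settings here are not given in the sources used. The part of that window in the step was not tested. These distances were chosen after their values were seen.

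**Figure D5:**
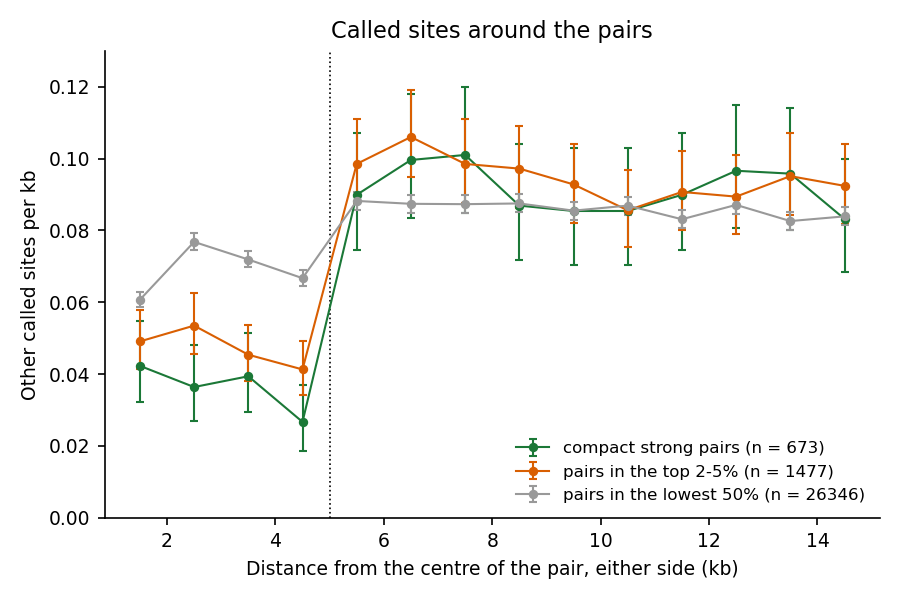
Other sites called in either list per kb (vertical axis) by distance from the centre of the pair, both sides together (kb, horizontal axis, steps of 1 kb from 1 to 15 kb), around 673 members, 1477 pairs of the top 2 to 5% and 26346 pairs of the lower 50%. Bars are exact Poisson 95% intervals and the dotted line marks 5 kb, where the density around members goes from 0.0267 to 0.0899 per kb.

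The surroundings of single members ran from nearly empty to crowded. On chromosome 11, the member at chr11:9174236-9174870 had no other site within 50 kb, and its nearest neighbour was 57.1 kb away. This member ranked 299 in MYCN and 387 in MYC. A single other site lay within 50 kb of 13 members, the first 4 of which along the genome are on chromosome 2 at 13838798 (nearest 21.8 kb), on chromosome 3 at 46517711 (35.2 kb) and on chromosome 4 at 28471890 (42.3 kb) and 49700389 (20.6 kb). A few strong sites were thus called in stretches with almost no other called site. The share of all pairs with a single other site was not counted. The lower quartile of the number of other sites within 50 kb was 5 in members and 5 over all pairs. Having no other site within 50 kb was not more common in members (0.149%, 0.0262 to 0.837) than over all pairs (0.465%, 0.41 to 0.527). At the other end, the member at chr5:3354737-3355350 had 22 other sites within 50 kb, and the member at chr8:35936209-35936972 had 20. Neighbouring members on chromosome 2 at 18996329 and 19015294 had 19 and 18, and the member on chromosome 3 at 60487909 had 18.

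Most members had no other member nearby, at a density of 0.496 members per Mb. The median distance between neighbouring members on a chromosome was 1303 kb (quartiles 487 and 2497 kb), the shortest was 5.48 kb and the longest 19573 kb. With a limit of 50 kb, 631 members had no other member nearby, and the other 42 formed 18 groups of 2 and 2 groups of 3. Spacing depends on how few sites the rule keeps, and it was not compared with that of as many other pairs. Both groups of 3 lay on chromosome 3, whose called peaks ended at 63.3 Mb. In the first, the MYCN peaks began at 60440387, 60487909 and 60509676, with MYCN scores of 531, 811 and 730 and MYC scores of 899, 1165 and 901. In the second, they began at 62962443, 62980037 and 62987923, with MYCN scores of 566, 653 and 606 and MYC scores of 803, 817 and 830. The first group of 2 along the genome lay on chromosome 1 at 24945633 and 24954046, 464 and 499 bp wide in MYCN, where the first of the 2 also had another site 135 bp away.

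By chromosome, the members made up 0.571% to 1.86% of the 1-to-1 pairs, beside 1.27% (1.18 to 1.37) over all 25. Chromosome 22 had the highest share, with 31 members of 1667 pairs (1.86%, 1.31 to 2.63) or 0.734 per Mb. Chromosome 4 had the lowest, with 10 members of 1752 pairs (0.571%, 0.310 to 1.05) or 0.161 per Mb, beside 0.496 per Mb genome-wide. Of its 10 members, 3 lay before 22 Mb and 7 lay after, on the long arm, which is known in zebrafish for its heterochromatin and repeated genes. All 1-to-1 pairs of the chromosome numbered 995 before 22 Mb and 757 after. Members were the smaller share of pairs before 22 Mb, outside the long arm, but by counts of only 3 and 7. No interval was made for these 2 shares, and their difference was not tested. By counting error, the interval of chromosome 4 lay below the genome-wide share, that of chromosome 22 lay above it, and those of the other 23 included it. The 25 shares were set side by side and were not tested. In the first 2 Mb of a chromosome, or within 2 Mb of the end of its last called peak, lay 50 members (7.43%, 5.68 to 9.66). The share of the weaker pairs there was 9.19% (8.95 to 9.44).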

How the data were processed

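ATAC-seq libraries from MYCN and MYC transgenic zebrafish tumours, 1 each, were sequenced on an Illumina HiSeq instrument, per the labels' protocols. The submitters' processing notes name Bowtie2 2.2.1, MACS2 2.1.0 and the build danRer7, without settings. No source used here states Tn5 offset correction, duplicate removal or a control. Each library's peaks were deposited by the authors as a list of their own (68559 MYCN and 77836 MYC peaks), with a whole-number score per peak from 13 upwards in either list. Such values fit 10 times the −log10 q-value that MACS2 reports, but no header states this, and the scores were used only within a list. MACS2 by default estimates the background of a candidate peak from reads around it, so calls near a strong peak can depend on that peak. Read depth is unknown.

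From these, pairs were built in Python 3.11.15 with numpy 2.4.6, pandas 2.3.3 and scipy 1.17.1, and their number was checked against bedtools 2.31.1 (52911 by both). The pairing code was tested on simulated lists. Peaks of equal score at the 2% limit were kept. Starts are counted from 1. A site is a region covered by either list. Shares have 95% Wilson intervals, medians exact binomial intervals and densities exact Poisson intervals, all of which cover counting error only and treat sites as independent. Named sites were the 10 with the best poorer rank, the 5 narrowest, the 5 leaning most to each list, the 5 with the fewest and the 5 with the most neighbours, the 5 with the largest width difference and the 3 largest groups. The members, measures and named sites were chosen with earlier results of these data known. The planned promoter, gene list and motif comparisons could not be run without the build's genome. Plots used matplotlib 3.10.9.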

Additional observations from a re-analysis of the deposited data

How the results depend on the processing

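Of the 9 measures of the members recomputed under 8 other settings, the number of members has no counting interval. Most values of the other measures stayed within theirs, but the compact share of strong pairs left its interval under most settings. Under every setting but the top 5%, most of the pairs were the same members. A value that stayed within its interval is therefore a weak check. The share of MYC-wider members stayed at 67.1% to 70.9% and that ranked higher in MYCN at 43.8% to 47.8%. The number of members was 306 with the top 1%, 1966 with the top 5% and 409 with a width limit of 600 bp. The compact share of strong pairs was 80.1% with the top 1%, 86.1% with the top 5%, 50.7% at 600 bp, 95.04% at 1000 bp and 74.1% with both peaks under 800 bp. The median larger edge offset was 36 bp with the top 5%. The shared bases were 93.3% with the top 1%, 91.3% with the top 5%, 91.4% at 600 bp and 93.1% with both peaks under 800 bp. The density of called sites, a measure chosen after seeing the data, was at 1 to 5 kb 0.0282 per kb with the top 1% and 0.0445 with the top 5%, and 0.0326 to 0.0388 under the other 6. At 5 to 9 kb it was 0.0886 to 0.0988 under all 8. Reciprocal overlap of 50% kept 670 of the 673 members, merging peaks closer than 100 bp kept 650, and trimming the MYC list to the MYCN length kept 621. Without chromosome 4 the members were 1.30% of pairs. No paired analysis was possible because there were no replicates, so no library could be left out. The unknown depth limits how far absent peaks can be read.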

Other observations

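The peaks called at 1 to 5 kb from members had middling ranks by score in their own lists. At 5 to 9 kb the medians lay on the stronger side of the middle, around members and around pairs of the lower 50%. At 1 to 5 kb from members, the 146 MYCN peaks had a median percent rank of 48.7 (39.7 to 55.4, where 100 is the weakest) and the 166 MYC peaks one of 47.9 (43.7 to 56.0). At 5 to 9 kb, the 400 MYCN peaks had a median of 39.9 (35.5 to 43.8) and the 455 MYC peaks one of 43.7 (39.2 to 48.8). Around pairs of the lower 50%, the medians were 51.8 (51.1 to 52.5) and 47.7 (46.7 to 48.0) in MYCN at these distances, and 51.6 (49.8 to 52.2) and 47.5 (46.1 to 48.5) in MYC. Among the 146 members with another site within 1 kb, that site was called in both lists at 97 (66.4%), in MYC only at 35 (24.0%) and in MYCN only at 14 (9.59%), close to the 64.3%, 24.0% and 11.7% of weaker pairs.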
